A study of Mus musculus with 2 samples.

Results

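The 38 genes described here encode the autophagosome machinery and the lysosome, the route of lipid breakdown that runs beside the cytosolic lipase ATGL (encoded by Pnpla2). They were chosen by name, with earlier results of these data known. The list holds 18 genes of autophagosome formation, 17 genes of the lysosome and 3 transcription factor genes. The gene name printed on the array matched 36 of them, and Tfeb and Tfe3, which the array calls by older names, were found through their RefSeq accessions. All 38 were measured, among 15419 genes in all. Each gene is given by its brightest probe, and all 38 probes were well above background on both arrays.

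The series compared mouse primary hepatocytes, liver parenchymal cells put into culture, after transfection with control siRNA or with siRNA against G0s2, the gene of a protein inhibitor of ATGL. Both cultures grew with 10% serum, and RNA was collected 24 hours after 50 pmol of siRNA had been given in lipid. Each group is 1 microarray. The strain, age and sex of the animals and the sequence of the siRNA are not given in the sources used here.

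In macroautophagy, a kinase complex with ULK1 starts a membrane that grows through ubiquitin-like conjugation of ATG8 proteins (LC3 and GABARAP), takes up cargo through receptors such as p62, and fuses with the lysosome. In hepatocytes lipid droplets can be cargo, a process called lipophagy, and their lipids are then split by lysosomal acid lipase, encoded by Lipa. TFEB, TFE3 and MITF are transcription factors that bind E-box elements upstream of many lysosomal and autophagy genes.

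A level is the log2 processed signal minus the 75th percentile of its array, and a difference is the level with G0s2 siRNA minus the level with control siRNA. The ± value is the scanner's own signal error carried to the difference, with a median of 0.20 over the members. It was nearly the same for every member, from 0.204 for Lamp1 to 0.227 for Atg10, so it is close to a fixed margin. It is not a spread measured gene by gene. The ± value leaves out variation between cultures and labellings, and with 1 array per group no difference has a replicate check or a p-value. A level depends on the probe, so levels of different genes are not compared. That percentile was a signal of 418 after control siRNA and of 728 after G0s2 siRNA, no spot was saturated, and 14120 of the 15419 genes were well above background on both arrays. G0s2 itself, with signals of 383 and 103, was 6.50-fold lower on the array labelled G0s2 siRNA, a difference of -2.70 ± 0.21.

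Of 10 hepatocyte markers, 9 were measured, all well above background on both arrays, with a median difference of 0.30. Among them Hnf4a was at 1.04, or at 0.95 with the probe position trend removed, as described below. Of 11 macrophage markers, which matter here because macrophages are rich in lysosomes, 10 were measured, 9 of them above background on the control array. Their median difference was 0.39, with 7 positive and 3 negative. Their summed signal, in multiples of the 75th percentile, was 14.3 after control siRNA and 13.4 after G0s2 siRNA, and without the brightest, Mpeg1, it was 7.04 and 10.2. Mpeg1 differed by -1.18 (0.22 with centring on the spike-in controls, described below), Csf1r by -0.50 and Clec4f by -0.33. Adgre1, Marco, Ctss, Vsig4 and Cd68 differed by 0.67, 0.56, 0.43, 0.35 and 0.14, and Cd14 was 2.14-fold higher. Lyz2 was well above background only with G0s2 siRNA, where it was at least 2.51-fold higher, but under normexp background correction its difference was 0. Cd163 had no measured probe. The part of these cells in the values below was not tested, and fewer cells of a type and less RNA per cell cannot be told apart.

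Among other cell types, 6 of 8 endothelial markers were measured, with a median difference of 0.83 that turned to -0.12 under normexp, and their summed signal went from 9.52 to 7.19, or from 0.757 to 1.04 without the brightest marker. That marker, Kdr, differed by -0.51, but by 1.27 on its next brightest probe. The 3 of 8 stellate cell markers measured had a median of 0.29, or -0.18 under normexp, and a sum of 1.05 and 2.10. The 6 of 7 bile duct markers measured had a median of -0.91, or 0.49 with spike-in centring, and a sum of 7.69 and 4.36. The 3 of 8 markers of lymphocytes and neutrophils measured had a median of -0.63, or 0.39 with spike-in centring, and a sum of 2.85 and 1.84. Markers past 2-fold upwards were the endothelial Cdh5 at 1.01 (0.13 under normexp), the stellate Dcn at 1.12 and the bile duct marker Prom1, at least 2.31-fold higher but with a difference of 0 under normexp. Those past it downwards were the bile duct markers Krt19 at -1.13 (-0.90 under normexp) and Cldn7 at -1.29 and the lymphocyte marker Cd3e at -1.01. Cdh5 and Cd3e were also under the rule with loess, at 0.89 and -0.97. Quantile normalization and the authors' deposited values each gave them 0.95 and -0.99. With spike-in centring Krt19, Cldn7 and Cd3e turned to 0.27, 0.11 and 0.39. That centring raised the difference of every gene well above background on both arrays by the same amount.

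Most of the 38 genes were near equal on the arrays, and a few members of both compartments stood apart. At a rule of at least 2-fold, 6 members were higher with G0s2 siRNA, namely Lamp1, Lamp2, Ctsd, Atg10, Npc1 and Ulk1, and 1, Map1lc3a, was lower. Over all 15419 genes, 4.81% were higher and 5.46% were lower by this rule. The median difference of the members was -0.03, beside -0.03 for all genes, with 17 members positive and 21 negative, and the middle 50% of the members ran from -0.23 to 0.38. Over all genes 6940 were positive and 8040 negative. Of the 18 autophagosome genes, 2 passed upwards and 1 downwards, around a median of 0.08. Of the 17 lysosome genes, 4 passed upwards and 0 downwards, around a median of -0.03. Of these 7 members, 6 lay within their scanner error of the 2-fold rule, and Lamp1 at 1.36 was the 1 beyond it. Just inside the rule were Ulk1 at 1.02, Npc1 at 1.06 and Map1lc3a at -1.01, and just outside it Psap at -0.86, Atg3 at 0.84 and Sqstm1 at 0.78.

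These directions are relative to the 75th percentile. With centring on the spike-in controls the median of all genes moved from -0.03 to 1.34, and 34 members then passed the rule upwards and 0 downwards, beside 77.2% and 0.305% of all genes, so every negative difference of a member below was positive on that scale. Counted from that shifted median, 6 members passed upwards and 0 downwards, beside 5.53% and 5.78% of all genes. The shift was the same for every gene well above background on both arrays, positive differences included, and left their order unchanged. The split of 6 higher and 1 lower became 6 and 0 under quantile normalization (4.71% and 5.73% of all genes), loess (4.64% and 5.77%) and the authors' deposited values (4.66% and 5.69%), where Map1lc3a lay between -0.94 and -0.90.

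**Figure D1:**
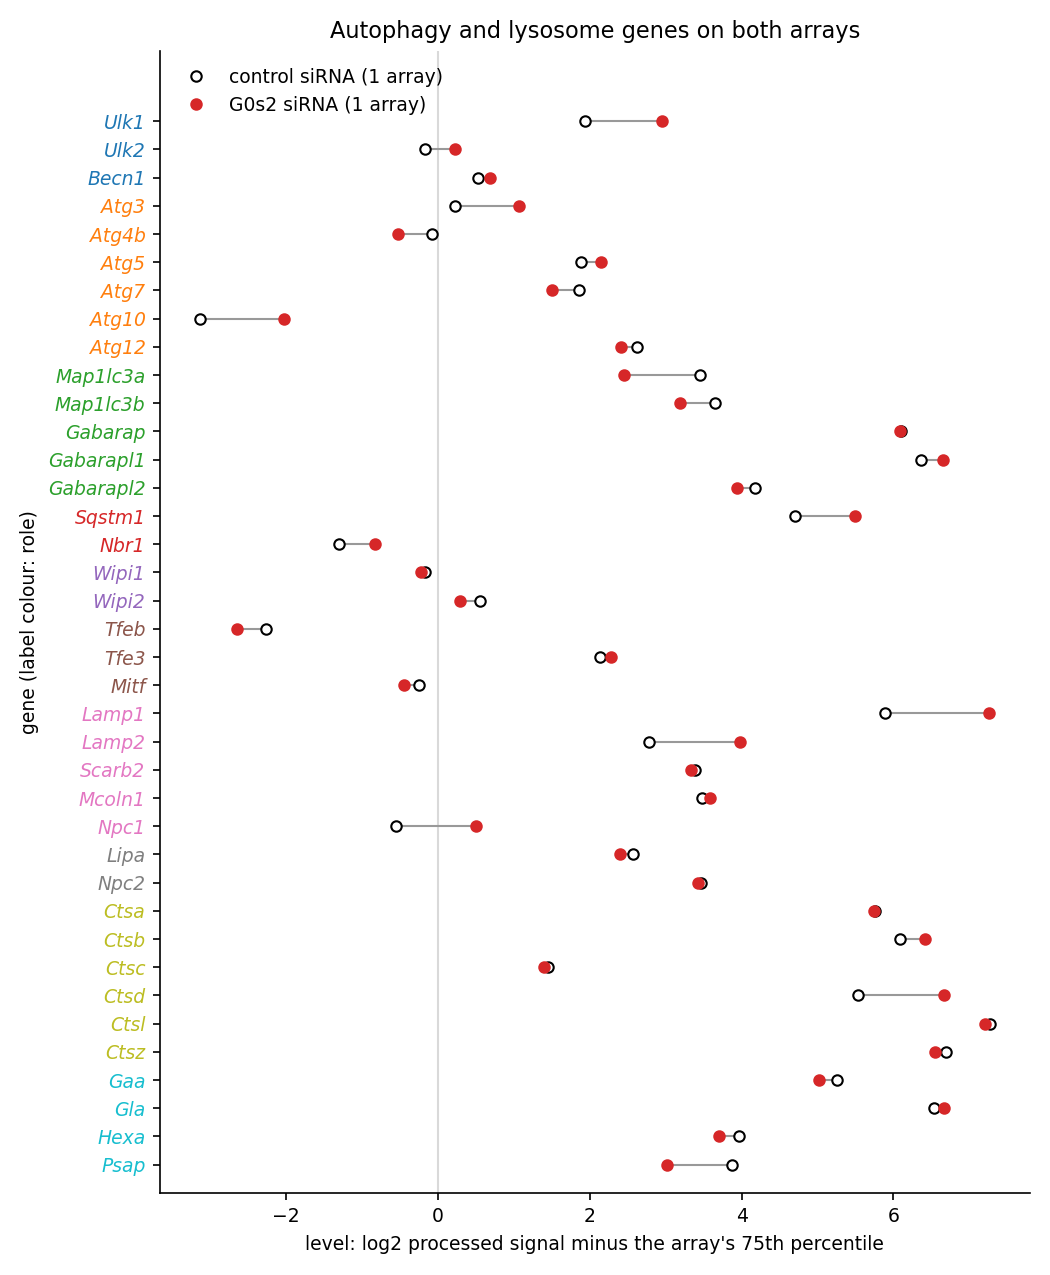
Level of each of the 38 genes (log2 processed signal minus the array's 75th percentile) on the control siRNA array (open circles) and the G0s2 siRNA array (red circles), with gene names coloured by role. Lamp1, Lamp2, Ctsd, Atg10, Npc1 and Ulk1 lie to the right with G0s2 siRNA by more than 1, Map1lc3a lies to the left by 1.01 (with spike-in centring it is higher by 0.39), and most pairs of circles nearly coincide.

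The lysosomal membrane held the largest difference among the members. Lamp1, which encodes the most abundant glycoprotein of the lysosomal membrane together with its relative LAMP2, had a signal of 24806 on the control array and 111068 with G0s2 siRNA. Its level went from 5.89 to 7.25, 2.57-fold higher, at 1.36 ± 0.20. The probe lies on chr8:13175277-13175336 of mm9, plus strand, at position 2193 of the transcript. Whether it falls in a coding exon or a UTR was not analysed here.

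Lamp2, needed for fusion of autophagosomes with lysosomes and, in one of its splice forms, the receptor of chaperone-mediated autophagy, had signals of 2875 and 11495 and levels of 2.78 and 3.98. It was 2.30-fold higher, at 1.20 ± 0.20. This probe, on chrX:35772774-35772833 of mm9, minus strand, was designed on transcript variant 2. A second probe, designed on variant 1 and lying at position 1139, gave levels of 2.50 and 3.23 and a difference of 0.73 ± 0.20. Both probes were higher with G0s2 siRNA, by 2-fold or more in the brightest only, and the files do not say which splice forms each detects. The sequence of the second is shown because it sets the lower of the values.

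Lamp2, probe at position 1139: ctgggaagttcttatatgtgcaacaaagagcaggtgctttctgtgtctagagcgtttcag

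Npc1, the membrane protein that exports cholesterol from lysosomes, had signals of 284 and 1032 and levels of -0.56 and 0.50, and was 2.09-fold higher, at 1.06 ± 0.20. Its soluble partner Npc2, which hands it cholesterol in the lumen, had levels of 3.46 and 3.43 and a difference of -0.03 ± 0.20. Scarb2, which carries glucocerebrosidase to the lysosome, had levels of 3.38 and 3.34 and differed by -0.04. The calcium channel gene Mcoln1 had levels of 3.48 and 3.58 and differed by 0.10. So 3 of the 5 genes of lysosomal membrane proteins were at least 2-fold higher, beside 4.81% of all genes, and the other 2 differed by -0.04 and 0.10. Of the 3, Lamp2 and Npc1 lay within their scanner error of the rule. Under normexp they were below it, at 0.88 and 0.98, and Scarb2 and Mcoln1 were at -0.30 and 0.31. Normexp also moved the median of all genes, to -0.09.

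The lysosomal lipase showed no such difference. Lipa had signals of 2479 and 3839, and levels of 2.57 and 2.40, which gave -0.17 ± 0.20, within the scanner error of 0. Pnpla2, the lipase that G0s2 inhibits, had levels of 2.44 and 2.59 and a difference of 0.15 ± 0.20. Neither the cytosolic nor the lysosomal triglyceride lipase was therefore past the 2-fold rule, while 1 array a group gives no interval on either value. In the list of 8 cytosolic lipolysis genes, which holds G0s2, the monoglyceride lipase gene Mgll was at least 2-fold higher at 1.40, with 0.82 on its next probe, and G0s2 was the 1 gene at least 2-fold lower.

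Among the 6 cathepsins, lysosomal peptidases, 1 stood apart. Ctsd, the aspartic protease cathepsin D, had signals of 19309 and 73730, with levels of 5.53 and 6.66, and was 2.20-fold higher at 1.13 ± 0.20. The probe lies on chr7:149561962-149562021 of mm9, minus strand. The other Ctsd probe, at position 528, had signals of 1386 and 8345 and gave 1.79 ± 0.20. It spans 1659 bases of the genome for 60 bases of probe, from 149566847 to 149568505 on chromosome 7, so it crosses a splice junction. Both Ctsd probes were thus at least 2-fold higher, and Ctsd was the 1 member among those with several probes for which this held.

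Ctsd, probe at position 528: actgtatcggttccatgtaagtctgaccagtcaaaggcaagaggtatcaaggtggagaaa

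The other cathepsin genes were close to equal. Of the cysteine protease genes, Ctsb had levels of 6.09 and 6.41 and Ctsc of 1.45 and 1.39, which gave 0.32 and -0.06. Ctsl had levels of 7.27 and 7.20 and Ctsz of 6.69 and 6.54, which gave -0.07 and -0.15. Ctsa, the carboxypeptidase that protects other lysosomal enzymes, had levels of 5.76 and 5.74 and differed by -0.02, with 0.49 on its second probe.

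The members that encode enzymes cutting sugars from glycans and glycolipids did not differ by 2-fold. Gla, alpha-galactosidase A, had levels of 6.53 and 6.67 and differed by 0.13. Hexa, a subunit of beta-hexosaminidase, had levels of 3.97 and 3.71 and differed by -0.26. Gaa, which breaks down lysosomal glycogen, had levels of 5.25 and 5.01 and differed by -0.24. A second Gaa probe gave 0.59. Psap, which encodes the precursor of the saposins that present lipids to these enzymes, had signals of 6135 and 5867. Its level went from 3.87 to 3.01, 1.82-fold lower, at -0.86 ± 0.20, although with spike-in centring it was higher by 0.54. Psap was the lowest of the lysosome members, under the 2-fold rule.

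Of the genes that start the autophagosome, all 3 had positive differences. Ulk1, the kinase that nutrient sensors regulate, had signals of 1597 and 5632 and levels of 1.93 and 2.95, 2.03-fold higher at 1.02 ± 0.20. Its probe lies on chr5:111213514-111213573 of mm9, minus strand, at position 5130 of a long transcript. Its paralog Ulk2 had levels of -0.18 and 0.22 and differed by 0.40, and a second Ulk2 probe by 0.42. Becn1, which encodes beclin 1 of the lipid kinase complex that follows, had levels of 0.52 and 0.68 and differed by 0.16.

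In the conjugation system, 1 of 6 genes was at least 2-fold higher. Atg10, the E2-like enzyme that joins ATG12 to ATG5, had signals of 47.4 and 179 and levels of -3.14 and -2.02, and differed by 1.12 ± 0.23. A second Atg10 probe, with signals of 17.1 and 34.8, differed by 0.22. With normexp background correction the brighter probe gave 0.49, so the 2.17-fold value depends on the probe and on the background correction. Its sequence is shown because the 2 probes disagree.

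Atg10, probe at position 339: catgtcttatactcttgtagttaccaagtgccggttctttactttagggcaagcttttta

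Atg3, the E2-like enzyme that attaches lipid to ATG8 proteins, had signals of 490 and 1529 and levels of 0.23 and 1.07, and was 1.79-fold higher, at 0.84 ± 0.20. The E1-like enzyme gene Atg7, which serves both conjugations, had signals of 1517 and 2053 and, from a level of 1.86 on the control array, differed by -0.36, and its second probe also by -0.36. Atg5, whose product is joined to that of Atg12, had levels of 1.88 and 2.14 and differed by 0.26, and Atg12, with levels of 2.62 and 2.41, by -0.21. The ATG8 protease gene Atg4b had levels of -0.08 and -0.52 and differed by -0.44. The genes of the conjugation system thus had no common direction, with 3 positive and 3 negative.

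The ATG8 family included the 1 member at least 2-fold lower relative to the 75th percentile. Counted from the median of all genes, that member was short of the rule in every setting, with -0.998 as its lowest value. Map1lc3a, which encodes LC3A, had signals of 4588 and 3969, and its level went from 3.45 to 2.45, 2.01-fold lower at -1.01 ± 0.20, although with spike-in centring it was higher by 0.39. Map1lc3b, which encodes the LC3B used to count autophagosomes, was printed on 10 spots per array. They ran from 4939 to 5645 with a median of 5239 on the control array, and from 6208 to 6945 with a median of 6628 on the G0s2 siRNA array. The spots of the arrays did not overlap in signal, yet relative to the 75th percentile, with levels of 3.65 and 3.19, Map1lc3b was lower by 0.46, and higher by 0.94 with spike-in centring. The SD over the 10 spots was 0.05 on either array on the log2 scale, below the scanner error of 0.14 per array. This spread is between spots of the same labelled RNA. In the GABARAP branch, Gabarap had levels of 6.10 and 6.09, Gabarapl1 of 6.36 and 6.66 and Gabarapl2 of 4.18 and 3.94. Their differences were -0.01, 0.29 and -0.24.

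Both cargo receptor genes had positive differences. Sqstm1, which encodes the ubiquitin receptor p62, had signals of 10941 and 32715 and levels of 4.71 and 5.49, 1.72-fold higher at 0.78 ± 0.20. Nbr1, a related receptor, had levels of -1.31 and -0.83 and differed by 0.48 ± 0.21. Neither passed the 2-fold rule. Among the phosphoinositide-binding WIPI proteins, Wipi1 had levels of -0.17 and -0.22 and differed by -0.05. Wipi2 had levels of 0.55 and 0.29 and differed by -0.26, while its second probe, with signals of 330 and 1035, gave 0.85. This gap of 1.11 was the widest between probes of any member.

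The 3 transcription factor genes were all under 2-fold. Tfeb had signals of 86.5 and 116 and levels of -2.27 and -2.65, and differed by -0.38 ± 0.22. Tfe3 had signals of 1844 and 3523 and levels of 2.14 and 2.28, and differed by 0.14 on both its probes. Mitf had levels of -0.26 and -0.44 and differed by -0.19 and by -0.75 on its second probe. The negative values of Tfeb and Mitf became 1.02 and 1.21 with spike-in centring. Their activity is set largely by phosphorylation and nuclear entry, which arrays of RNA do not measure.

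**Figure D2:**
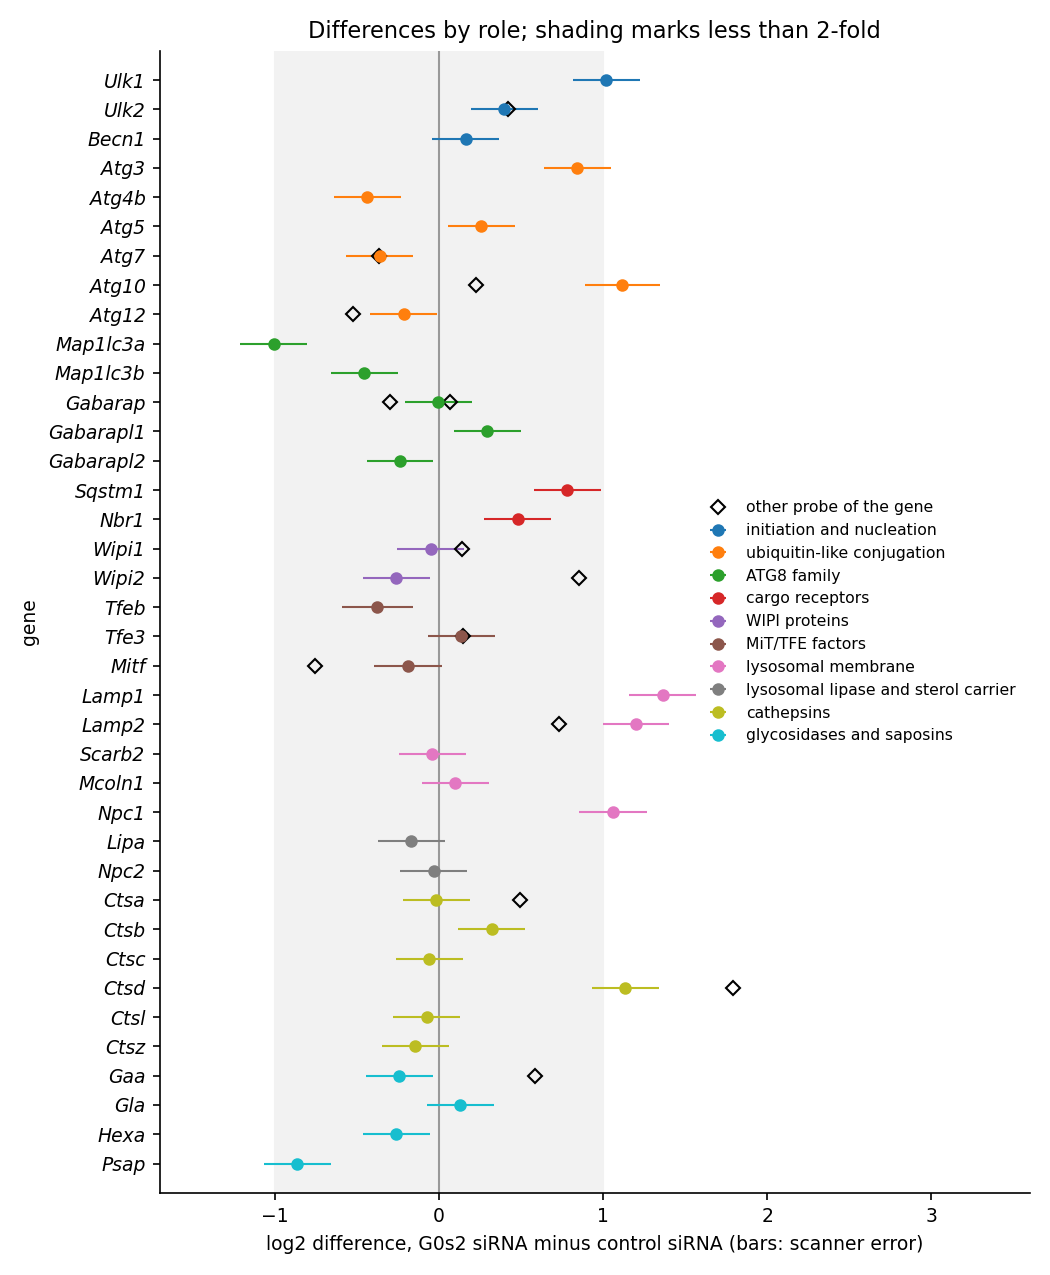
Log2 difference of each gene, G0s2 siRNA minus control siRNA, at its brightest probe (coloured circles, by role) with the scanner error as bars, and at its other probes (open diamonds). Shading marks differences under 2-fold. The 6 higher genes lie from 1.02 to 1.36, both Ctsd probes lie right of the shading, and the diamonds of Atg10, Lamp2 and Wipi2 lie away from their circles.

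Probes of the same gene gave a measure of how far a value rests on 1 sequence. Of the 38 members, 13 had more than 1 measured probe and 25 had 1, so that Lamp1, Npc1, Ulk1 and Map1lc3a have no second reading. In 14 pairs of the brightest and another probe, the sign was the same in 9 and the median gap was 0.39, against a median gap of 0.29 over the 3774 genes with a second probe. The 6 higher members had probes at a median position of 2824 in the transcript, and the other 32 at 1730. Removing a trend of the difference with probe position, an alternative chosen after seeing the data, left 4 members higher by the rule and 0 lower (4.46% and 5.57% of all genes), with Ulk1 at 0.92 and Npc1 at 0.98 under the rule. Most members also had strong signals. In the top 1 of 4 equal groups of genes by mean level, which held 24 members, 2.05% of genes passed the rule upwards and 3.19% downwards, against 4 and 1 of the 24 members.

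The upstream sequences of these genes show the element through which the TFEB family is known to act. The motif searched was TCACGTG on both strands, an E-box (CACGTG) with the flanking base typical of that family. The 250 bases before each transcription start were taken from RefSeq on GRCm38.p6, which held 33 of the 38 members. It was found in 8 members, 6 of them among 15 lysosome genes and 2 among 15 autophagosome genes, and in 3.58% of all 27025 genes of that table. The bare E-box was found in 10 of the 33, and in 6.86% of all genes. Overlapping matches on both strands count as 1 site. A match is a description of the sequence and not of binding. The element is already known upstream of many lysosomal genes, so its share among them is no finding of these data. The 27025 genes were also not limited to the 15419 measured on the arrays.

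Atg7, at -0.36 the lowest of the members with the motif, and Ctsa, at -0.02, are left out below. The stretches around the sites are shown for the other members with the motif, in order of their differences from high to low. Matches are in capitals, and each sequence is written along the strand of its gene. The members shown are Lamp1 on chr8:13159079-13159160 (plus strand), Ctsd on chr7:142387899-142388077 (minus), Atg3 on chr16:45158714-45158784 (plus), Mcoln1 on chr8:3500427-3500500 (plus), Gla on chrX:134601173-134601253 (minus) and Gaa on chr11:119267802-119267848 (plus), all on GRCm38.p6. Mcoln1, at 0.10, stands before Gla, at 0.13.
Lamp1: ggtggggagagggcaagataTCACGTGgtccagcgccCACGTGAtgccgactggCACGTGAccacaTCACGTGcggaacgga
Ctsd: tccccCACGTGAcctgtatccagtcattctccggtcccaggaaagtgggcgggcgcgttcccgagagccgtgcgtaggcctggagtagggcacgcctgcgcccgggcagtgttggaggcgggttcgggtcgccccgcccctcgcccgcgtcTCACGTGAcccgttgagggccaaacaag
Atg3: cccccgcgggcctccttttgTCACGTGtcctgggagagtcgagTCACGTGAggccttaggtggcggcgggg
Mcoln1: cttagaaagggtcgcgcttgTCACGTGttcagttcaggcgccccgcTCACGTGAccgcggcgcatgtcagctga
Gla: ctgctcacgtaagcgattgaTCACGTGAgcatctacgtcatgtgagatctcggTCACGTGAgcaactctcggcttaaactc
Gaa: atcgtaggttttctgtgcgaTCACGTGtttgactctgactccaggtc

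Lamp1, with the largest difference, had 4 sites within 58.5 bases of its start, and 4 of the 27025 genes had 4 or more. Ctsd, Atg3, Mcoln1 and Gla had 2 sites each, with differences of 1.13, 0.84, 0.10 and 0.13, and 0.285% of all genes had at least 2. Gaa, Ctsa and Atg7 had 1 site, with -0.24, -0.02 and -0.36. Members with the motif thus ran from -0.36 to 1.36, with a median of 0.12, and those without had a median of -0.05. No test was made of the motif against the differences.

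**Figure D3:**
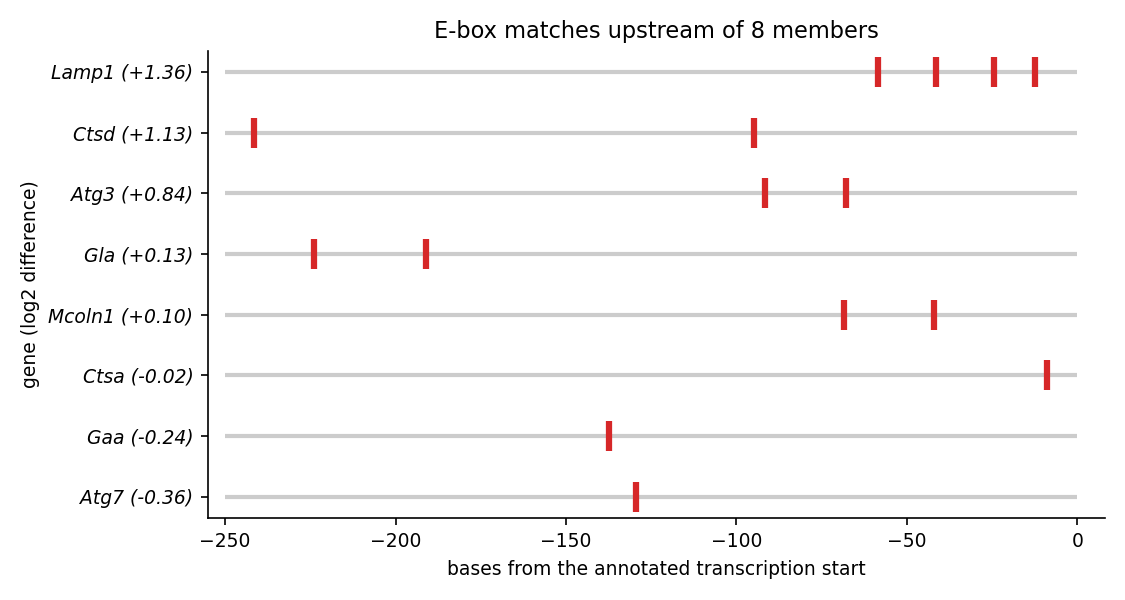
Position of each TCACGTG match, on either strand, in the 250 bases before the annotated start of the 8 members that hold one (red marks; axis in bases), ordered by their log2 difference between the arrays, given in parentheses. Lamp1 has 4 marks near the start, while genes with 2 marks have differences from 0.10 to 1.13.

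Other genes of the pathway, in 11 lists that do not repeat the members, showed more genes higher than lower with G0s2 siRNA. In the 8 lists of autophagy and lysosome genes together, 112 of 115 genes were measured, 14 passed the rule upwards and 2 downwards, beside 4.81% and 5.46% of all genes. Their median was 0.17, with 74 positive and 38 negative, beside a median of -0.03 with 6940 positive and 8040 negative over all genes. Under spike-in centring the lower genes, Vps41 and Galns, turned to 0.023 and 0.37. No statement that these lists differ from other genes is drawn from 1 array a group.

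The vacuolar ATPase, the proton pump that acidifies the lysosome, had 3 of 16 subunit genes at least 2-fold higher, 0 lower and a median of 0.31. The accessory subunit gene Atp6ap1 went from a level of 1.25 to 2.59, at 1.34 ± 0.20, and a second probe gave 1.53. Atp6v1c1 and Atp6v1b2, of the cytosolic V1 sector, differed by 1.29 and 1.07, and under normexp Atp6v1b2 gave 0.51.

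In other lysosomal hydrolases, 2 of 29 measured genes passed the 2-fold rule upwards and 1 downwards, around a median of 0.07. Tpp1, a tripeptidyl peptidase, differed by 1.58 ± 0.21, Man2b1, lysosomal alpha-mannosidase, by 1.16 and Galns, a sulfatase, by -1.03. Galns was under the rule with normexp at -0.80, loess at -0.96, quantile normalization at -0.94 and the authors' deposited values at -0.93, and was at 0.37 with spike-in centring. Of other lysosomal membrane proteins, 2 of 15 were higher and 0 lower with a median of -0.03, namely the ion channel gene Tpcn1 at 1.30 (0.93 under normexp, under the rule) and Laptm4b at 1.16. In the sorting of enzymes to lysosomes, 2 of 10 were higher and 0 lower with a median of 0.35. These were Gga2, a coat adaptor at the Golgi, at 1.21 and Gnptab, which makes the mannose 6-phosphate tag, at 1.17.

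Further autophagosome genes gave the same picture of a few large values. Of other initiation and nucleation genes 0 of 13 passed the rule in either direction, with a median of 0.25 and Atg2b, a lipid transfer protein gene, at 0.87 and Atg14 at 0.69. Of other conjugation genes 2 of 6 measured were higher and 0 lower, with a median of 0.41. Atg16l1, which places the conjugation on the membrane, differed by 1.40, and Wdr45b, a WIPI relative, by 1.63 with 0.44 on its next probe. Of selective receptors 2 of 10 were higher and 0 lower with a median of 0.33, namely the endoplasmic reticulum receptor gene Retreg1 at 1.52 and Tax1bp1 at 1.02 (0.98 with the probe position trend removed).

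In the fusion of autophagosomes with lysosomes, 1 of 13 genes was higher, 1 was lower and the median was 0.17. Rab7, a small GTPase of late endosomes, differed by 1.35 ± 0.20, and Vps41, of the tethering complex HOPS, by -1.38 ± 0.20 (0.023 with spike-in centring). Upstream signalling genes were similar. At the mTORC1 kinase complex, which inhibits ULK1 and TFEB when nutrients are present, 1 of 26 genes passed the rule upwards and 1 downwards, around a median of 0.18. Deptor, a subunit that inhibits mTOR, differed by 1.62 ± 0.20. Rragd, a Rag GTPase gene known as a TFEB target, was not well above background with G0s2 siRNA and was at least 2.38-fold lower. The Rragd difference was -0.76 under normexp and 0 with spike-in centring, so the call was lost under both. The AMPK list, whose kinase activates ULK1, had 0 of 7 genes past the rule in either direction and a median of 0.15, with Prkab1 at 0.65 and Prkag2 at 0.62.

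**Figure D4:**
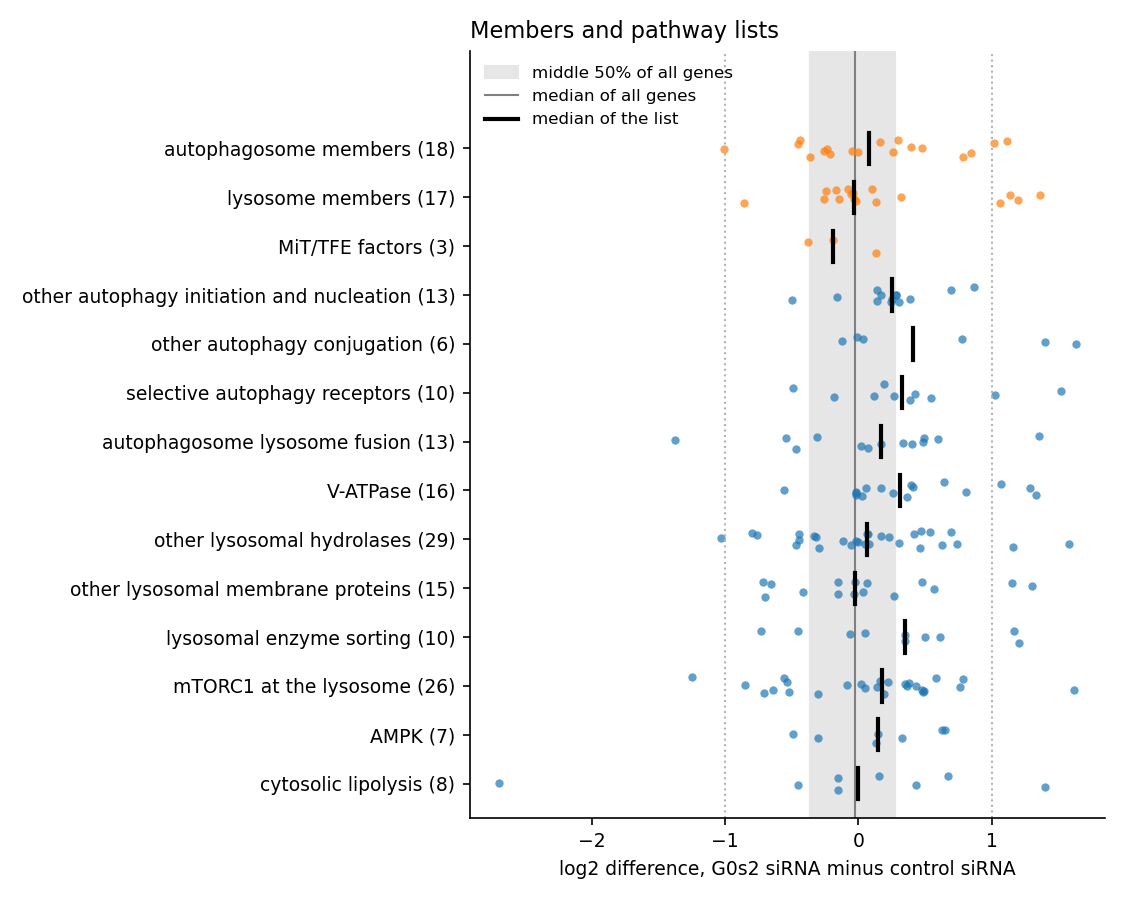
Log2 difference of each measured gene (points), G0s2 siRNA minus control siRNA, for the members by class (orange) and for 11 lists of other pathway genes (blue), with the number of genes in parentheses and the list median as a black bar. Grey shading is the middle 50% of all 15419 genes and dotted lines mark 2-fold. The medians of the 11 lists lie from -0.03 to 0.41, and the leftmost point, at -2.70, is G0s2.

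The largest differences were then recomputed under other processing. Lamp1 and Ctsd were at least 2-fold higher in every setting that gave them a value, from 1.33 to 1.58 and from 1.13 to 1.79 apart from spike-in centring, which gave 2.77 and 2.54. Under normexp 2 members, these same 2, were at least 2-fold higher, beside 2.45% of all genes, with Npc1 and Ulk1 both at 0.98, Lamp2 at 0.88 and Atg10 at 0.49. Normexp also moved the median of all genes to -0.09. Counted from that median, 5 members passed upwards and 0 downwards, and the share of all genes on that count is not given here. With the mean over probes 4 members were at least 2-fold higher, beside 4.56% of all genes, without Lamp2 at 0.97 and Atg10 at 0.67. By the next brightest probe, which 13 members have, 1 member (Ctsd) was higher and 0 were lower, beside 6.01% and 4.45% of genes with such a probe. At 1.5-fold, 8 members were higher and 2 lower, beside 12.4% and 14.6% of all genes, and at 3-fold 0 and 0, beside 1.14% and 1.53%.

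**Figure D5:**
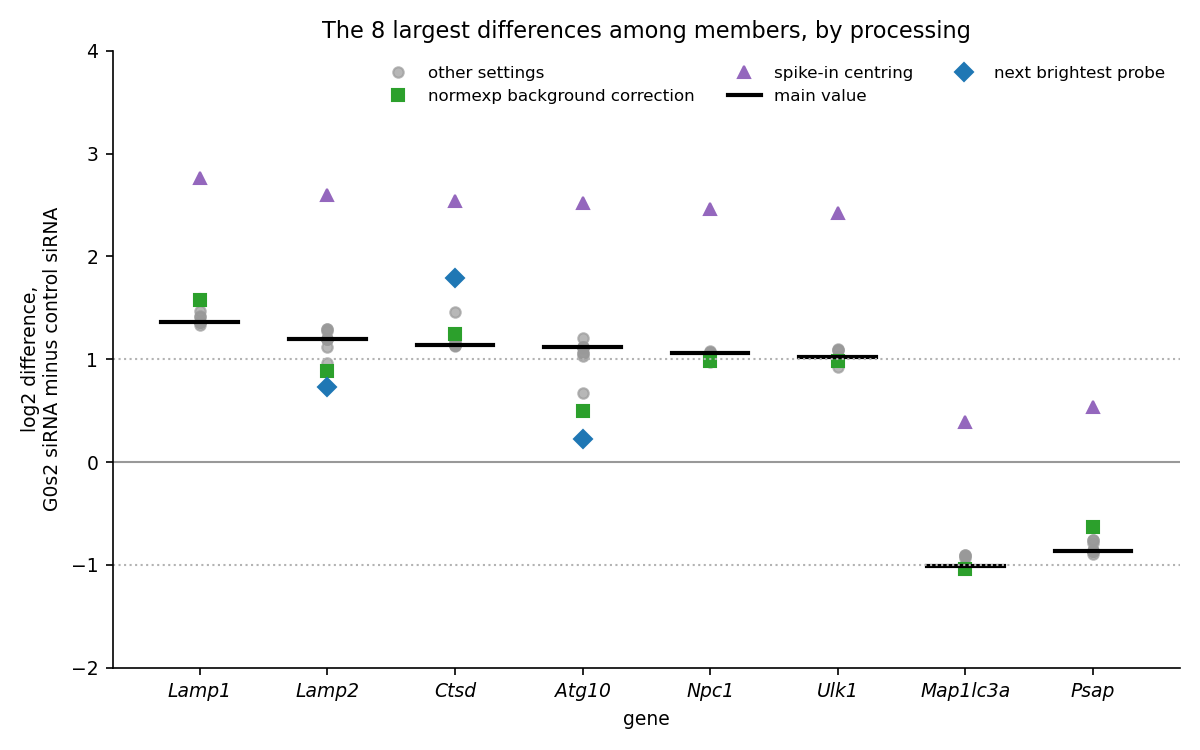
Log2 difference, G0s2 siRNA minus control siRNA, of the 8 members with the largest differences under each processing setting, with the main value as a black bar and dotted lines at 2-fold. Lamp1 and Ctsd stay above the upper line, the green squares of Lamp2, Atg10, Npc1 and Ulk1 lie below it, and spike-in centring (purple) turns Map1lc3a and Psap positive.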

How the data were processed

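The deposited scanner tables hold linear intensity values, 1 colour (Cy3), read with Agilent Feature Extraction 10.7.1.1 per the file headers. Per the labels' protocols 0.5 ug of RNA was labelled. The authors' deposited value table holds intensity values on a common distribution, by a method not given in the sources used here, and served as an alternative. Control and outlier spots were left out, spots of a probe were averaged, and log2 signals were set to each array's 75th percentile, which left 39424 probes. A gene was represented by its brightest probe among those well above background on at least 1 array. A gene dim on 1 array enters as a bound against the lowest signal above background. Names came from array gene names, accessions and RefSeq (GRCm38.p6). Probe coordinates are those of mm9.

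No test was possible with 1 array per group. Both arrays lay on the same slide, so slide position and group cannot be told apart. Calls are differences of at least 2-fold. Named genes are all members, G0s2, Pnpla2, marker genes past that rule and, of each pathway list, genes past it or otherwise the 2 with the largest difference. The remaining macrophage markers and Kdr are also named, a choice made after their values were seen. The calculation was tested on simulated data. Members, lists and rules were chosen with earlier results of these data known. Tools were Python 3.11.15, pandas 2.3.3, statsmodels 0.14.6, R 4.3.3 and limma 3.58.1 (normexp with offset 50, quantile, loess).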

Additional observations from a re-analysis of the deposited data

How the results depend on the processing

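The count of members at least 2-fold higher, 6, was 2 under normexp (5 if counted from the median of all genes), 34 with spike-in centring and 1 with the next brightest probe, which 13 members have. It was 0 at a rule of 3-fold. The count at least 2-fold lower, 1, was 0 under quantile normalization, loess, spike-in centring, the next brightest probe, the authors' values, removal of the probe position trend (chosen after seeing the data) and the 3-fold rule, and 2 at 1.5-fold. The median difference of the members, -0.03, was 1.38 with spike-in centring and 0.22 over next brightest probes. G0s2 was at -2.36 under normexp and at -1.30 with spike-in centring. Spike-in centring turned Map1lc3a to 0.39, Vps41 to 0.023, Galns to 0.37, Mpeg1 to 0.22, Krt19 to 0.27, Cldn7 to 0.11 and Cd3e to 0.39, and left Rragd at 0. It added the same amount to every gene well above background on both arrays, so these turns are not particular to the genes named. Over the members and all settings, 368 values moved by less than the scanner error, 62 by more, and 1 reversed after passing the 2-fold rule. Many of the 368 had little or no room to move. The changed filters on dim probes left every member as it was. Median centring and keeping outlier spots shifted all members by the same small amount. The mean over probes is the main value for the 25 members with 1 probe. This count is therefore no measure of stability. No paired analysis was possible because each group is 1 array. Signal limits Atg10 and Tfeb most, and the number of arrays limits every value.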
